A study of Homo sapiens with 60 samples.

Results

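A group of 9 human genes that clear drugs from cells was followed, out of 60675 gene identifiers quantified in the series. The members are the enzymes CYP3A5, EPHX1 and UGT1A6 and the efflux pumps ABCB1, ABCC1, ABCC2, ABCC3, ABCC4 and ABCG2, chosen by name. Each was read in CPM (the count of a gene scaled to an equal effective library size) in all 60 libraries. A dose effect was judged between doses of 1 extract, so that the compared libraries shared their extract and their set of sample codes.

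The cells were A549, an established line from a human lung adenocarcinoma, grown in RPMI medium with serum and lysed 24 h after treatment for messenger RNA sequencing. The vehicle group received DMSO (n = 3). Low, medium and high dose stand for 20, 100 and 500 µg/mL of an extract. Sibjeondaebo-tang and Palmul-tang, formulas of several herbs, were extracted in water, with 3 and 2 libraries at each dose. The others were ethanol extracts of the single herbs Poria Cocos, Atractylodis Rhizoma, Glycyrrhizae Radix (licorice) and Panax Ginseng (n = 3 per dose each) and of Angelicae Gigantis Radix and Paeoniae Radix (1 library per dose each). The single herbs are named below by 1 word each (Poria, Atractylodis, Glycyrrhizae, Ginseng, Angelicae and Paeoniae). All groups are 1 cell line, and no label tells whether replicates were separate cultures, so each p-value measures the spread between these libraries, which may be technical. For the vehicle the labels state 0.1% DMSO and the design text 2%. The design text also describes lower doses for the more toxic extracts, whereas every label carries 1 of the 3 doses, and the label's dose is used here.

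Library totals ran from 18602484 to 29764358 counts. The summed level of 10 epithelial and lung markers was 6521 to 11522 CPM and was highest in the vehicle group (mean 11343 CPM). It came mostly from the keratins KRT7, KRT8 and KRT18, while the lung-lineage markers SFTPC and NKX2-1 stayed at or below 0.209 and 1.52 CPM in every library. Of 5 leukocyte markers PTPRC and CD3E had a median of 0, and the summed list (17.4 to 79.1 CPM) was mostly CD68. Lists for endothelium and fibroblasts (4.57 to 7.97 CPM) and hepatocytes (6.15 to 20 CPM) were low throughout. A pair of libraries stood apart. Replicate 3 of low Poria had 27941 genes above 0, against 22355 to 23015 in the other Poria libraries. The single high Paeoniae library held the lowest level of 5 members among all 60. The share of all tested genes that were lowest in it was not computed.

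Cells dispose of foreign chemicals in steps. Oxidising and hydrolysing enzymes such as cytochromes P450 and epoxide hydrolase expose a reactive group, conjugating enzymes such as the UDP-glucuronosyltransferases attach a water-soluble one, and ATP-binding cassette (ABC) pumps push the drug or its conjugate out of the cell. In tumour cells the pumps are known for carrying chemotherapy drugs outward, and several of these genes are switched on by receptors that sense chemicals, among them PXR, CAR, the aryl hydrocarbon receptor and the factor NRF2.

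The upstream DNA of 3 members is shown because their transcripts fell at high licorice dose and because short motifs of such receptors can be looked for in it. RefSeq gives windows of 250 bases before a start site for CYP3A5, UGT1A6, EPHX1, ABCB1, ABCC2, ABCC4 and ABCG2. The printed stretches (GRCh38.p14, 5′ to 3′ on the strand of the gene) end at the last base before both the RefSeq and the GENCODE start. They lie at chr7:99680027-99680246 (CYP3A5, minus strand), chr2:233691452-233691606 (UGT1A6, plus strand) and chr13:95301476-95301701 (ABCC4, minus strand). Capitals mark matches, on either strand, to the everted repeat ER6 (TGAACT and AGGTCA with 6 bases between them, read by PXR and CAR), to GCGTG (the core of the xenobiotic response element of the aryl hydrocarbon receptor) or to TGACNNNGC (the core of the antioxidant response element of NRF2).
CYP3A5: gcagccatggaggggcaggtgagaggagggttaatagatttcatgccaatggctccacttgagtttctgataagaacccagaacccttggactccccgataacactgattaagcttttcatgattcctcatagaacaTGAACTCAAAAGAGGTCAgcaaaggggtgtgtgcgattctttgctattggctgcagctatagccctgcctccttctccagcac
UGT1A6: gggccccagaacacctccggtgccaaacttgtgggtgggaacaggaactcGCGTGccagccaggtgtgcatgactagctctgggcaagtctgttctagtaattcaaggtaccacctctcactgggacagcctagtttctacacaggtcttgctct
ABCC4: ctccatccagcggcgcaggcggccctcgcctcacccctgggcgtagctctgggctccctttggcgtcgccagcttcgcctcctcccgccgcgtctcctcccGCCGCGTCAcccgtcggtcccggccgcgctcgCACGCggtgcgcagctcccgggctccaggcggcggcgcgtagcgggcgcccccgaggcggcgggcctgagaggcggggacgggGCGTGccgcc

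The CYP3A5 window held 1 ER6 match, starting 113 bases before the RefSeq start, and ER6 was present in 3 of 35116 RefSeq windows of the same length (0.00854%). The UGT1A6 window held 1 GCGTG, which occurred in 32.2% of windows. The ABCC4 window held 2 GCGTG matches and 1 TGACNNNGC match, a motif found in 10.9% of windows. None of the 3 motifs was found in the ABCC2 window or in the EPHX1, ABCB1 and ABCG2 windows nearest to the annotated gene starts. RefSeq windows at other start sites did hold matches: 2 GCGTG and 1 TGACNNNGC in an EPHX1 window, 1 GCGTG in an ABCB1 window, 2 GCGTG in each of 3 ABCG2 windows, and 1 TGACNNNGC in a second UGT1A6 window. No 2 matches in the printed stretches overlap.

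In the vehicle libraries the members spanned a wide range of levels per length of exon. EPHX1, the microsomal epoxide hydrolase that opens reactive epoxides, was the most abundant at 233 ± 7.64 CPM per kb (mean ± SD, n = 3), with single libraries between 226 and 241. Next stood the basolateral conjugate pump ABCC3 at 60.8 ± 3.07, ABCC2, which exports glucuronide and glutathione conjugates, at 50.8 ± 3.26, and ABCC1, the first described multidrug resistance protein, at 39.5 ± 0.781 CPM per kb. ABCG2, the breast cancer resistance protein, had 8.43 ± 0.269 CPM per kb. The lowest of the detected members were UGT1A6 (3.7 ± 0.133), the cyclic nucleotide pump ABCC4 (3.33 ± 0.263) and CYP3A5 (2.68 ± 0.231 CPM per kb), a P450 that shares many substrates with CYP3A4. Neighbours in this order did not overlap between libraries except UGT1A6 (3.56 to 3.82) and ABCC4 (3.16 to 3.63 CPM per kb). The length used joins all annotated exons of a gene, 6759 bases for CYP3A5 and 5180 for UGT1A6, and single transcripts can be shorter. The order rests on this choice of length. In plain CPM the vehicle libraries of CYP3A5 (16.4 to 19.2) and UGT1A6 (18.4 to 19.8) overlapped, as did those of EPHX1 (568 to 606) and ABCC3 (551 to 609).

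**Figure D1:**
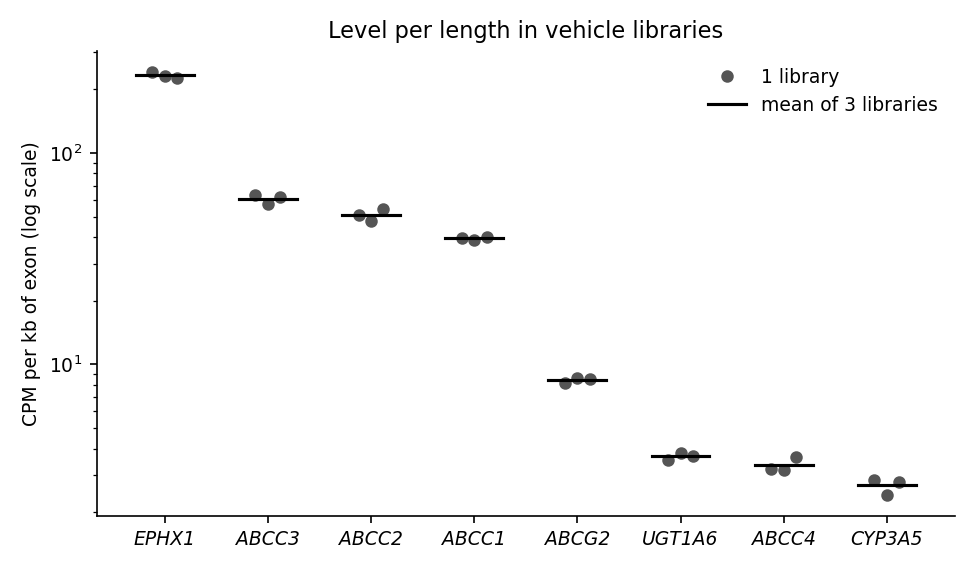
Level of 8 members in the vehicle group per kb of all annotated exons of the gene joined, on a log axis. Each of the 3 libraries is a point, and a bar marks their mean. EPHX1 stands highest near 233 CPM per kb and CYP3A5 lowest near 2.68, and ABCB1 is left out because 2 of its 3 vehicle values are 0.

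ABCB1 (ENSG00000085563, chromosome 7, 87503633 to 87713323 on GRCh38), the P-glycoprotein pump, was at the edge of detection. It had 15 counts over all 60 libraries, never more than 2 in a library, and counts above 0 in 13 libraries. A count of 0 allows up to 3 counts, or 0.101 to 0.161 CPM depending on the library, by counting error alone. ABCB1 did not pass the filter on low counts, so no dose effect on it was detectable at this depth.

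UGT1A6 needs care because the genes of the UGT1A cluster share their last exons, and 64.4% of its exonic bases lie in other annotated genes. The authors' estimated counts divide reads among them, giving UGT1A9 44.2%, UGT1A7 36.8%, UGT1A1 10.8% and UGT1A6 7.58% of the counts of the cluster. CYP3A5 took 98.3% of the counts of the CYP3A genes. Of EPHX1, 1.12% of exonic bases overlap TMEM63A on the opposite strand, and the other members have no exonic overlap.

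High dose was compared with low dose in each of 6 extracts by the quasi-likelihood test of edgeR, with p-values adjusted by Benjamini-Hochberg over 17764 tested genes, among them 8 of the 9 members. Glycyrrhizae changed 5 of 8 members, CYP3A5, UGT1A6 and ABCC4 downward and ABCC1 and ABCC3 upward, where 37% of all tested genes were called, 18.5% higher and 18.4% lower. Sibjeondaebo-tang lowered 2 of 8, CYP3A5 and ABCC3 (3.78% of tested genes called, 1.44% lower), and Palmul-tang lowered the same 2 (2.08%, 0.794% lower). With Poria the single call was CYP3A5, which fell (1.55%, 0.484% lower), as it was with Ginseng (1.2%, 0.653% lower). No member was called with Atractylodis by edgeR or by DESeq2 (0.208% of all genes by edgeR). An unadjusted edgeR p under 0.05 was held by 1 member, ABCC2, and by 1217 of 17764 tested genes. The median log2 change of the 8 members lay between -0.10 (Glycyrrhizae) and -0.03 (Palmul-tang and Poria), beside medians of all tested genes between -0.01 and 0.01.

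**Figure D2:**
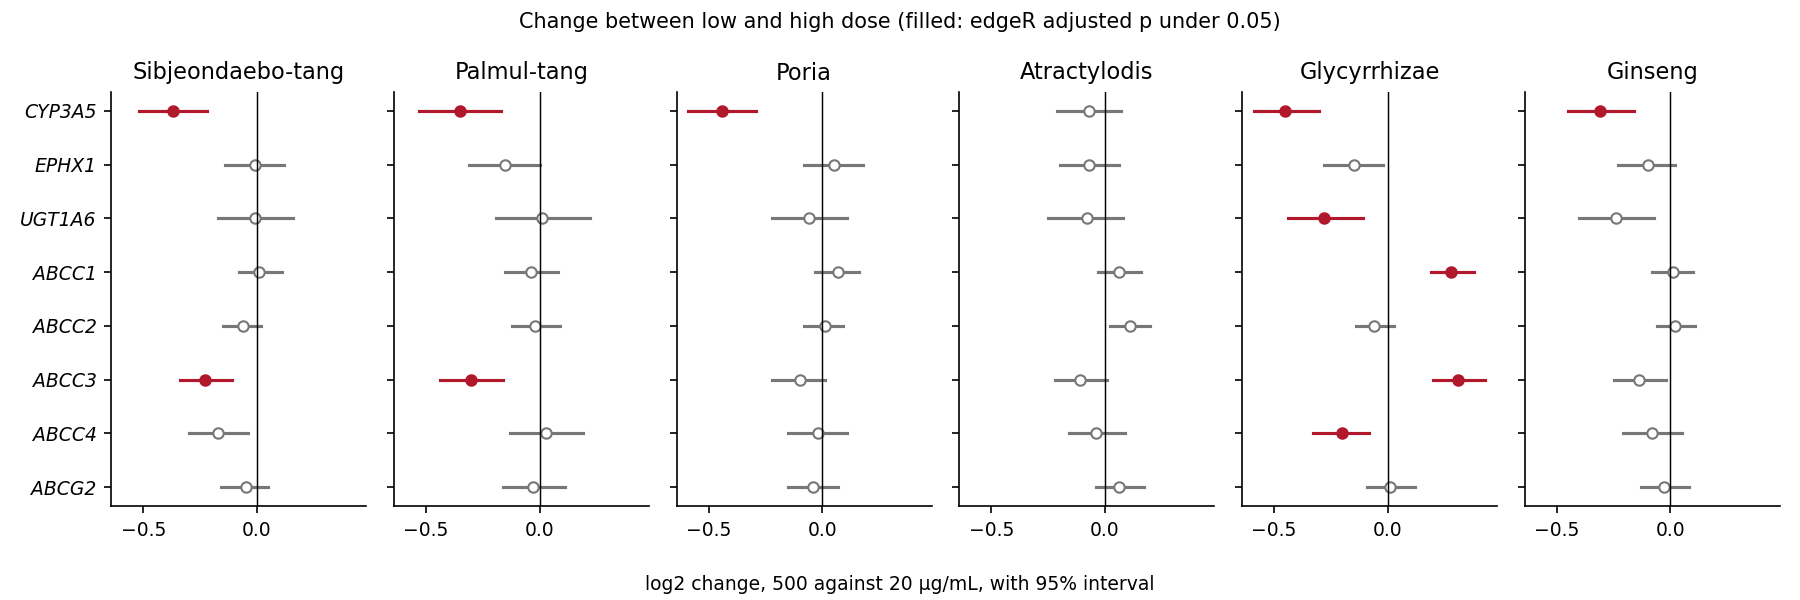
Log2 change of 8 members between 20 and 500 µg/mL in each of 6 extracts, with 95% intervals from the edgeR fit, where filled red points have an adjusted p under 0.05. CYP3A5 lies to the left of 0 in all 6 panels and is filled in 5, and ABCC1 and ABCC3 lie to the right with Glycyrrhizae at 0.28 and 0.31.

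CYP3A5 (ENSG00000106258, chromosome 7, 99648194 to 99680026, GRCh38) was the member called most often. With Poria its level was 22.9, 21.2 and 20.1 CPM in the low-dose libraries and 15.1, 16 and 16.3 CPM at high dose. The groups did not overlap, and the fall was 0.44 on the log2 scale, written below as a log2 change ± SE (-0.44 ± 0.07, 26.2% lower by the group means; edgeR adjusted p = 0.000251). Without low-dose replicate 3, the Poria library that stood apart, the change was -0.480 (edgeR adjusted p = 0.000575).

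The Glycyrrhizae libraries read 22.2, 23.7 and 23.8 CPM of CYP3A5 at low dose and 15.7, 17.9 and 17.6 CPM at high dose, a change of -0.45 ± 0.07 (edgeR adjusted p = 1.87e-06). With Sibjeondaebo-tang the values were 23.2, 23.6 and 21.8 CPM at low dose and 17, 16.4 and 19.8 CPM at high dose (-0.37 ± 0.07; edgeR adjusted p = 0.00111). In each of these extracts all high-dose libraries lay below all low-dose libraries.

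The other pair of calls was less firm. Palmul-tang gave 20.7 and 23.7 CPM of CYP3A5 at low dose and 17.1 and 17.7 CPM at high dose (-0.35 ± 0.09; edgeR adjusted p = 0.0257). That call was lost without high-dose replicate 2 or 3 (edgeR adjusted p = 0.196 and 0.137), without low-dose replicate 3 (0.403) and with scaling by total counts (0.112). Ginseng gave 24.9, 24.4 and 25.3 CPM at low dose and 20.4, 19.7 and 20.2 CPM at high dose, groups with a narrow spread that lie well apart (-0.31 ± 0.07; edgeR adjusted p = 0.0151). Leaving out high-dose replicate 1, 2 or 3 ended this call (edgeR adjusted p = 0.0607, 0.081 and 0.0554), as did leaving out low-dose replicate 1 (0.0546), fitting only the Ginseng groups (0.0749) or scaling by total counts (0.0785).

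Atractylodis was the exception among the 6. Its CYP3A5 levels were 23.3, 21.5 and 22.2 CPM at low dose and 21.1, 21.2 and 21.5 CPM at high dose, a change of -0.07 ± 0.07 with a 95% interval of -0.21 to 0.07 (edgeR adjusted p = 0.898). The difference between the Poria and Atractylodis changes was -0.37 ± 0.10 (95% interval -0.58 to -0.16), which missed the threshold after adjustment (edgeR adjusted p = 0.218). So the data do not separate the 2 extracts at this threshold, though the interval of the difference lies below 0.

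At medium dose CYP3A5 took values between those of the low and high doses in Sibjeondaebo-tang, Palmul-tang, Poria and Ginseng by group means, with changes against low dose of -0.14 to -0.18 that were not called. With Glycyrrhizae the medium libraries were 24.3, 26.5 and 28 CPM, all above the low-dose libraries, and 28 CPM was the highest value of the 60 libraries. This rise of 13% (0.18 ± 0.07) was not called (edgeR adjusted p = 0.407). The medium and high doses were compared with the same low-dose libraries. Summing all CYP3A genes left the calls as they were, with changes of -0.46 ± 0.07 for Glycyrrhizae and -0.44 ± 0.07 for Poria.

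**Figure D3:**
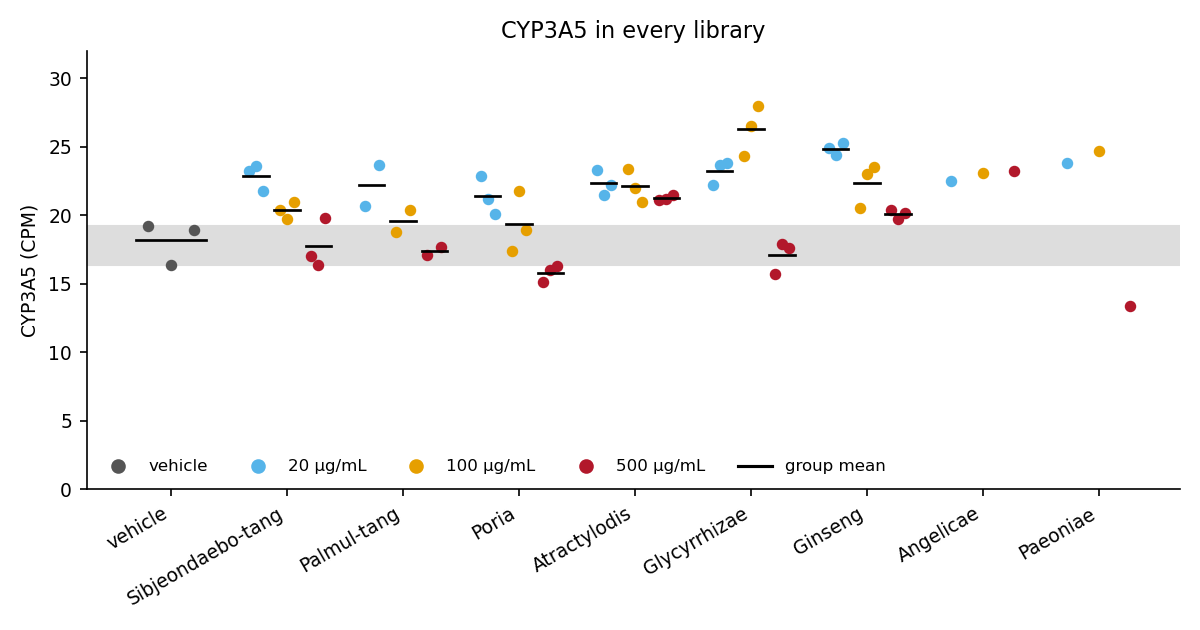
CYP3A5 level in CPM in every library of the vehicle and 8 extracts, coloured by dose, with bars for the means of replicated groups and a grey band for the range of the vehicle libraries (16.4 to 19.2 CPM). Low-dose libraries of the 6 replicated extracts (20.1 to 25.3 CPM) all lie above the band, and the single Paeoniae library at 500 µg/mL is the lowest point at 13.4 CPM.

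EPHX1 (ENSG00000143819, chromosome 1, 225810092 to 225845563) was the steadiest member by its coefficient of variation over the 60 libraries (5.97%, against 14.5% for CYP3A5), and its level ran from 476 to 636 CPM. No extract changed it between doses at the threshold. The nearest case was Glycyrrhizae, with 595, 520 and 632 CPM at low dose and a mean of 524 ± 21.9 CPM (SD, n = 3) at high dose, where replicates 2 and 3 had 510 and 513 CPM. These groups overlap, and the change was -0.15 ± 0.06 (edgeR adjusted p = 0.0556). It was called with DESeq2 (adjusted p = 0.0424), with total counts (edgeR 0.00581), with no filter on low counts (0.0275), and after omission of high-dose replicate 1 (0.0382) or low-dose replicate 2 (0.00614).

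UGT1A6 (ENSG00000167165, chromosome 2, 233691607 to 233773300), which glucuronidates small phenols, was lower at high than at low Glycyrrhizae dose. The low-dose libraries had 17.8, 21.5 and 21.2 CPM and the high-dose libraries 17.6, 15.2 and 17.1 CPM, which do not overlap by a narrow margin. The change was -0.28 ± 0.08 (edgeR adjusted p = 0.00603), and omitting high-dose replicate 2 ended the call (edgeR adjusted p = 0.0561). Ginseng had a similar estimate, -0.24 ± 0.08, that was not called (edgeR adjusted p = 0.203), and the difference between the 2 extracts was -0.04 ± 0.12 (95% interval -0.27 to 0.19). In the other 4 extracts the change lay between -0.08 and 0.01.

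Since reads are divided among the UGT1A genes, the cluster was also summed. The sum fell by 0.23 on the log2 scale at high Glycyrrhizae dose (SE 0.04; edgeR adjusted p = 8.63e-07). Its parts moved in opposite directions. UGT1A9 went from 122 ± 6.75 to 76.5 ± 2.1 CPM (mean ± SD, n = 3; -0.67 ± 0.05, edgeR adjusted p = 2.67e-16) and UGT1A7 from 102 ± 4.52 to 89.6 ± 2.42 CPM (-0.18 ± 0.05, 0.00474), while the bilirubin-conjugating UGT1A1 rose from 29.2 ± 1.39 to 49.7 ± 3.58 CPM (0.77 ± 0.06, 8.18e-16). With Ginseng the sum changed by -0.07 ± 0.04 (edgeR adjusted p = 0.553). Against the vehicle, with the limits given below, the sum was called higher at high Ginseng dose (0.13 ± 0.04; edgeR adjusted p = 0.00516). At low dose it was called higher with Sibjeondaebo-tang (0.13 ± 0.04), Palmul-tang (0.15 ± 0.04), Glycyrrhizae (0.16 ± 0.04) and Ginseng (0.20 ± 0.04). It was not called at low dose with Poria or Atractylodis (0.06 ± 0.04 each). How far the division of shared reads moves the value of UGT1A6 was not tested.

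Among the pumps, ABCC3 (ENSG00000108846, chromosome 17, 50634777 to 50692252) went up with Glycyrrhizae and down with both formulas. At high Glycyrrhizae dose its libraries had 729, 739 and 764 CPM, against 570, 594 and 633 CPM at low dose and 551, 548 and 576 CPM at medium dose. The 3 high-dose values are the highest of all 60 libraries. The change against low dose was 0.31 ± 0.06 (24.2% higher; edgeR adjusted p = 1.61e-05), and the change at medium dose was -0.10 ± 0.06 (edgeR adjusted p = 0.754).

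Palmul-tang libraries had 636 and 651 CPM of ABCC3 at low dose and 523 and 522 CPM at high dose, 18.7% lower (-0.30 ± 0.07; edgeR adjusted p = 0.0107). With Sibjeondaebo-tang the level went from 627, 653 and 645 CPM to 539, 546 and 563 CPM, 14.5% lower (-0.23 ± 0.06; edgeR adjusted p = 0.0139). The dose groups did not overlap in either formula. Leaving out any 1 of the 4 Palmul-tang libraries ended its call (edgeR adjusted p = 0.095 and 0.115 without high-dose replicates 2 and 3, 0.0797 and 0.13 without low-dose replicates 2 and 3), as did total counts (0.0541). The Sibjeondaebo-tang call ended without high-dose replicate 1 or 2 (0.0687 and 0.0502), without low-dose replicate 2 or 3 (0.0669 and 0.0562), with total counts (0.0564) and when only its own groups were fitted (0.0519).

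In Poria, Atractylodis and Ginseng the ABCC3 change was also negative, -0.10 to -0.14, and not called. For Ginseng the libraries were 587, 611 and 627 CPM at low dose and 532, 552 and 574 CPM at high dose, which do not overlap (edgeR adjusted p = 0.364).

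ABCC1 (ENSG00000103222, chromosome 16, 15949577 to 16143074), which exports glutathione conjugates and many anticancer drugs, rose with Glycyrrhizae. Its libraries had 331, 313 and 307 CPM at low dose, 341, 347 and 324 CPM at medium dose and 386, 396 and 375 CPM at high dose. All high-dose libraries lie above every other library of the series, where the next highest is 349 CPM. The change was 0.28 ± 0.05 (21.7% higher; edgeR adjusted p = 2.4e-06), and the medium dose stood at 0.09 ± 0.05 (edgeR adjusted p = 0.689). In the other 5 extracts ABCC1 changed by -0.04 to 0.07 between low and high dose, with no call.

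ABCC4 (ENSG00000125257, chromosome 13, 95019829 to 95301475), which carries cyclic nucleotides and nucleoside drugs, fell at high Glycyrrhizae dose. Low-dose values were tightly grouped at 36.9, 37.2 and 37.1 CPM, and the high-dose libraries had 30.3, 35 and 31.3 CPM, all lower. The change of -0.20 ± 0.06 (edgeR adjusted p = 0.00936) lost its call on omitting high-dose replicate 1 (0.0772) and with total counts (0.075). Sibjeondaebo-tang gave -0.17 ± 0.06, with 38.4, 35.5 and 34.3 CPM at low and 29, 33.2 and 34.1 CPM at high dose, which was not called (edgeR adjusted p = 0.16).

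ABCC2 (ENSG00000023839, chromosome 10, 99782640 to 99852594) and ABCG2 (ENSG00000118777, chromosome 4, 88090264 to 88231322) were not called between doses in any of the 6 extracts. The widest ABCC2 change was with Atractylodis, from 439, 431 and 404 CPM to 464, 468 and 442 CPM (0.11 ± 0.04; edgeR adjusted p = 0.56). For ABCG2 the changes between high and low dose lay between -0.05 and 0.06. Its medium Glycyrrhizae libraries reached 48.2, 53.7 and 54.9 CPM beside 45.4, 49.6 and 48 CPM at low dose, an overlap (0.13 ± 0.05; edgeR adjusted p = 0.402).

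**Figure D4:**
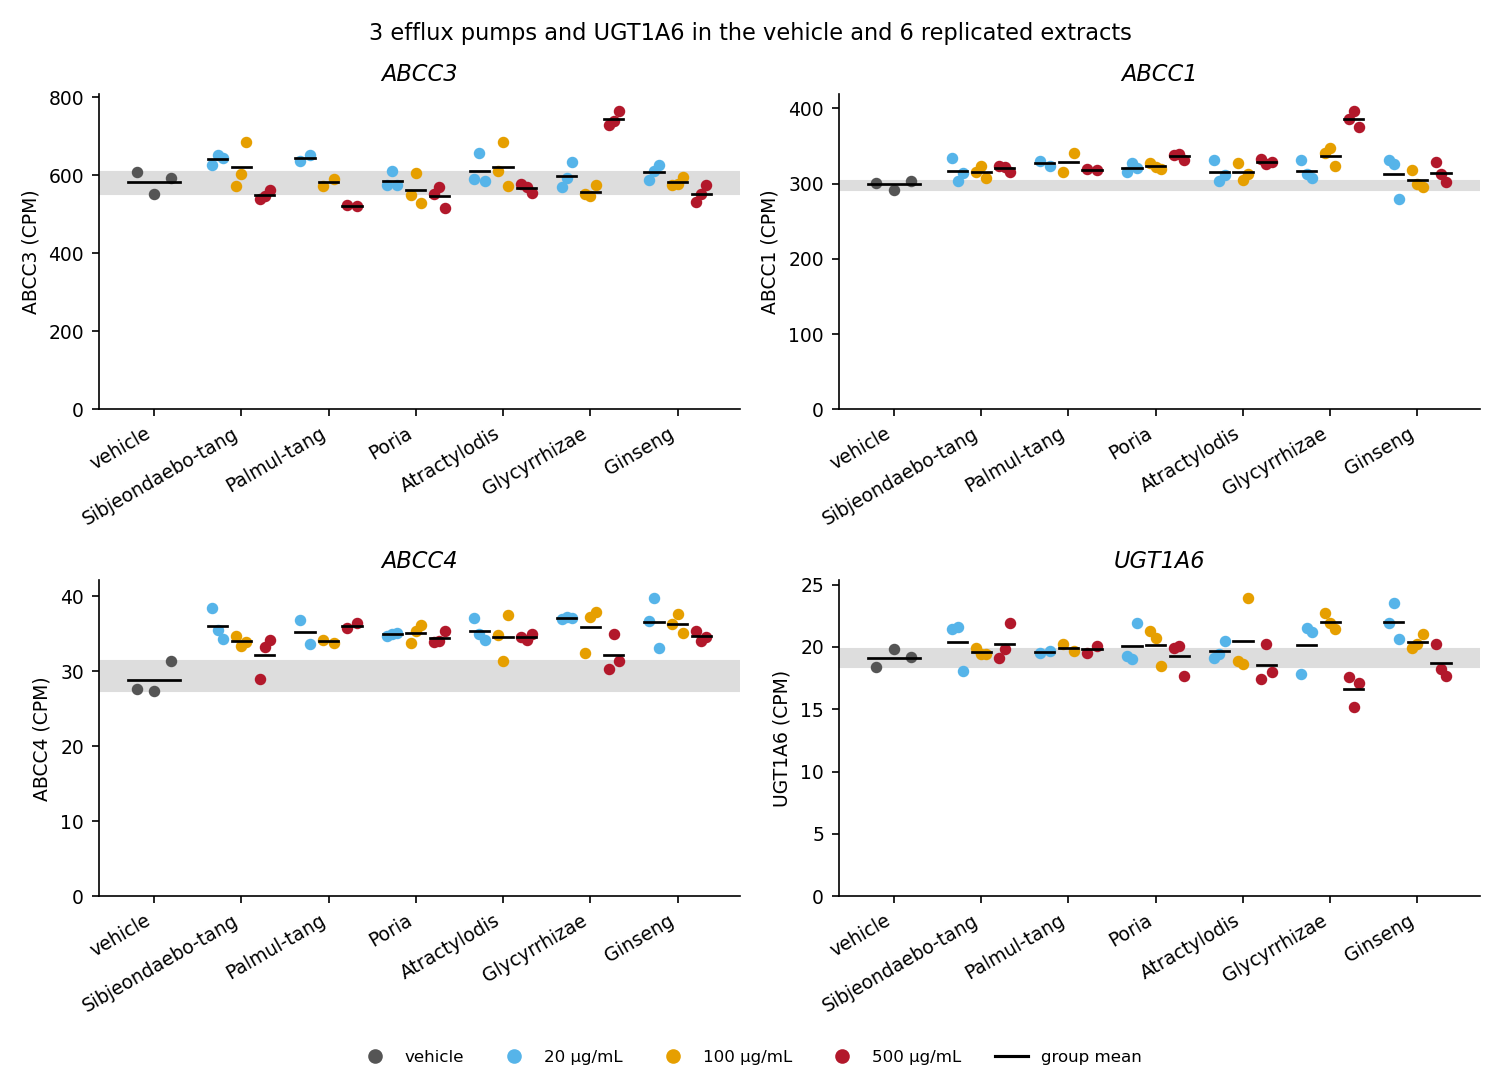
CPM of ABCC3, ABCC1, ABCC4 and UGT1A6 in each library of the vehicle and the 6 replicated extracts, coloured by dose, with bars for group means and a grey band for the vehicle range. High Glycyrrhizae libraries stand highest for ABCC3 (729 to 764 CPM) and ABCC1 (375 to 396 CPM), and vehicle libraries stand lowest for ABCC4 by group mean (28.8 CPM).

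No member was called between medium and low dose by edgeR or by DESeq2 in any of the 6 extracts. The number of members with an unadjusted edgeR p under 0.05 was 1 for Sibjeondaebo-tang, 2 for Palmul-tang, 0 for Poria and Atractylodis, 2 for Glycyrrhizae and 1 for Ginseng. The share of all tested genes called after adjustment was low as well, at 0.0788% for Sibjeondaebo-tang, 0.788% for Glycyrrhizae and 0% for the other 4. An unadjusted edgeR p under 0.05 was held by 1023 of 17764 tested genes for Sibjeondaebo-tang, 863 for Palmul-tang and 766 for Poria. For Atractylodis it was held by 445 genes, for Glycyrrhizae by 1346 and for Ginseng by 554.

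Differences between extracts in their dose change were tested within pairs that share a set of sample codes. Glycyrrhizae and Ginseng differed in 2 of 8 members, ABCC3 and ABCC1 (21% of tested genes called). The ABCC3 change was higher with Glycyrrhizae by 0.45 ± 0.08 (95% interval 0.29 to 0.61; edgeR adjusted p = 2.59e-05) and that of ABCC1 by 0.27 ± 0.07 (0.14 to 0.41; edgeR adjusted p = 0.00147). For CYP3A5 the difference was -0.14 ± 0.10 (-0.35 to 0.06), for ABCC4 -0.12 ± 0.09 (-0.31 to 0.06) and for EPHX1 -0.05 ± 0.09 (-0.23 to 0.13), none called. Poria and Atractylodis differed in 0 of 8 members by edgeR and by DESeq2 (0.0732% of genes by edgeR). An unadjusted edgeR p under 0.05 was held by 1 member, CYP3A5, and by 1293 of 17764 tested genes.

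The 2 formulas, which were both water extracts, differed in 0 of 8 members by edgeR and by DESeq2, with 0% of tested genes called. An unadjusted edgeR p under 0.05 was held by 0 of 8 members and by 904 of 17764 tested genes. The intervals leave room for differences: that of ABCC4 was -0.40 to 0.01 (estimate -0.20 ± 0.10), that of CYP3A5 -0.25 to 0.22 and that of ABCC3 -0.11 to 0.26.

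Comparisons of the low dose with the vehicle were added after the data had been seen. In them CYP3A5 and ABCC4 were higher in every replicated extract at low dose. CYP3A5 had 19.2, 16.4 and 18.9 CPM in the vehicle libraries, and its 17 low-dose libraries lay between 20.1 and 25.3 CPM. ABCC4 had 27.6, 27.3 and 31.4 CPM in the vehicle, and its low-dose libraries 33.1 to 39.7 CPM. The groups do not overlap for either gene. The vehicle libraries carry a set of sample codes of their own. A set is the first part of a sample code, and the titles of all 60 libraries name the same batch, BatchC. What a set stands for is not given in the labels. The treatment and the set cannot be told apart in any comparison with the vehicle libraries. All these comparisons share the same 3 vehicle libraries.

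The low-dose change of CYP3A5 against the vehicle ran from 0.24 ± 0.07 (Poria, edgeR adjusted p = 0.0175) to 0.46 ± 0.07 (Ginseng, 7.97e-06) and that of ABCC4 from 0.28 ± 0.07 (Poria, 0.00191) to 0.37 ± 0.07 (Glycyrrhizae, 3.17e-05). In Palmul-tang the CYP3A5 call ended without low-dose replicate 3 or vehicle replicate 2 (edgeR adjusted p = 0.303 and 0.108) and the ABCC4 call without low-dose replicate 2 (0.116). In Poria the CYP3A5 call ended without low-dose replicate 1 or vehicle replicate 2 (0.118 and 0.172) and with the replicate number as a block (0.0529). Called members at low dose, all higher than the vehicle, numbered 3 for Sibjeondaebo-tang (24.1% of tested genes called, 12.6% higher), 3 for Palmul-tang (15.4%, 8.73% higher), 4 for Poria (19.5%, 10.9% higher), 2 for Atractylodis (23.7%, 12.7% higher), 4 for Glycyrrhizae (28.8%, 14.6% higher) and 4 for Ginseng (28.8%, 14.6% higher). Besides CYP3A5 and ABCC4 these were ABCC2 in 5 extracts and ABCG2 in 3. The ABCC2 call held in 3 of 11 alternatives for Palmul-tang and 8 of 12 for Poria. For Sibjeondaebo-tang, Glycyrrhizae and Ginseng it held in 11 of 12 each. The ABCG2 call held in 8 of 12 for Poria and for Glycyrrhizae and in 11 of 12 for Ginseng. Omitting vehicle replicate 2 ended the ABCC2 call in Sibjeondaebo-tang, Palmul-tang, Poria and Ginseng (edgeR adjusted p = 0.058, 0.227, 0.181 and 0.072), and omitting vehicle replicate 1 ended it in Palmul-tang and Poria (0.0786 and 0.054). The ABCG2 call ended in Poria and Glycyrrhizae on omitting vehicle replicate 1 (edgeR adjusted p = 0.138 and 0.0915).

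At high dose the group mean of CYP3A5 lay below that of the vehicle in 4 of the 6 extracts (15.8 to 17.7 CPM in Poria, Glycyrrhizae, Palmul-tang and Sibjeondaebo-tang, against 18.1 ± 1.56 in the vehicle), none of them called. With Atractylodis it was higher than the vehicle (21.3 CPM, 0.23 ± 0.07; edgeR adjusted p = 0.0169, and 0.17 without vehicle replicate 2). Glycyrrhizae at high dose had 7 called members against the vehicle (46.8% of tested genes), led by ABCC1 (0.37 ± 0.05) and ABCC3 (0.35 ± 0.06) and including UGT1A6 (-0.20 ± 0.08; edgeR adjusted p = 0.0471) and EPHX1 (-0.16 ± 0.06; 0.0358) in the other direction. The UGT1A6 call held in 3 of 12 alternatives and that of EPHX1 in 7 of 12. ABCC2, called higher (0.11 ± 0.04; edgeR adjusted p = 0.0273), held its call in 5 of 12. The summed UGT1A cluster was not called in this comparison (-0.07 ± 0.04; edgeR adjusted p = 0.105). For UGT1A6 the highest edgeR adjusted p was 0.219, on omitting high-dose replicate 2, and DESeq2 gave an adjusted p of 0.0661. Omitting high-dose replicate 3 or vehicle replicate 2 or 3 also ended the UGT1A6 call (edgeR adjusted p = 0.0597, 0.144 and 0.088), and omitting high-dose replicate 2 or 3 or vehicle replicate 1 or 2 ended that of EPHX1 (0.116, 0.105, 0.129 and 0.0639). The counts were 6 for Atractylodis (26.1%), 4 for Ginseng (28.9%), 3 for Poria (16.3%) and 1 for Palmul-tang, ABCC4 (22.2%). EPHX1 was also called lower with Ginseng (-0.19 ± 0.06, edgeR adjusted p = 0.0189), a call that held in 9 of 12 alternatives. With Atractylodis EPHX1 was lower too (-0.17 ± 0.06, edgeR adjusted p = 0.0463), in 6 of 12. ABCC4 was called higher with Glycyrrhizae (0.16 ± 0.07, edgeR adjusted p = 0.0382), in 6 of 12. It was also called higher with Poria (0.26 ± 0.07), Atractylodis (0.27 ± 0.07) and Ginseng (0.27 ± 0.07). With Sibjeondaebo-tang 0 members were called by edgeR (15.2% of tested genes), and DESeq2 called 1. An unadjusted edgeR p under 0.05 was held there by 3 of 8 members and by 4943 of 17764 tested genes.

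These high-dose counts moved when 1 library was left out. The Glycyrrhizae count was 4 without high-dose replicate 2, high-dose replicate 3 or vehicle replicate 1 and 3 without vehicle replicate 2, and with a replicate block it was 4. The Atractylodis count was 3 without vehicle replicate 2, the Ginseng count 2 without vehicle replicate 1, the Palmul-tang count 2 without vehicle replicate 2 or 3, and the Sibjeondaebo-tang count 1 without high-dose replicate 1 and 2 without vehicle replicate 3. At low dose the Palmul-tang count was 1 without low-dose replicate 2 or 3 or vehicle replicate 2, and the Poria count was 2 without low-dose replicate 1 or 2 or vehicle replicate 1 or 2. ABCC1 and ABCC3 with high Glycyrrhizae were called against the vehicle in all 12 alternatives.

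Paeoniae and Angelicae have 1 library per dose, so their differences have no replicate check and no test. The high Paeoniae library held the lowest value of the 60 libraries for CYP3A5, UGT1A6, ABCC2, ABCC3 and ABCG2. For what share of all tested genes this library was the lowest was not computed, so this count has no background beside it. UGT1A6 had 22.6, 19.1 and 8.52 CPM at low, medium and high dose, while the lowest of all other libraries was 15.2 CPM. ABCC3 had 625, 588 and 327 CPM, with 516 CPM as the lowest elsewhere, and CYP3A5 had 23.8, 24.7 and 13.4 CPM, with 15.1 CPM elsewhere. For these 3 the high dose differed from the low by more than 1.5-fold in CPM plus 1, by log2 values of -1.31 (UGT1A6), -0.93 (ABCC3) and -0.78 (CYP3A5).

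ABCC2 (416, 443 and 286 CPM) and ABCG2 (42.2, 48.6 and 32.3 CPM) were also lowest at high Paeoniae dose without passing 1.5-fold. EPHX1 (609, 563 and 576 CPM), ABCC1 (296, 331 and 349 CPM) and ABCC4 (34.4, 39.7 and 33.4 CPM) stayed within the range of the other libraries at high dose. Thus 3 of 8 members passed 1.5-fold in this pair of libraries, where 19.3% of tested genes did (9.65% lower), and the members' median was -0.46 beside -0.00 for all tested genes. In the same libraries UGT1A9 had 114 CPM at low and 99.4 CPM at high dose, UGT1A7 106 and 68.6 CPM, and UGT1A1 26.2 and 15.6 CPM.

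With Angelicae 0 of 8 members passed 1.5-fold between low and high dose, where 0.771% of tested genes did. CYP3A5 had 22.5, 23.1 and 23.2 CPM at low, medium and high dose, and ABCC3 612, 571 and 581 CPM. Its high-dose ABCC2 value, 486 CPM, was the highest of the 60 libraries, beside 463 CPM at low dose.

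**Figure D5:**
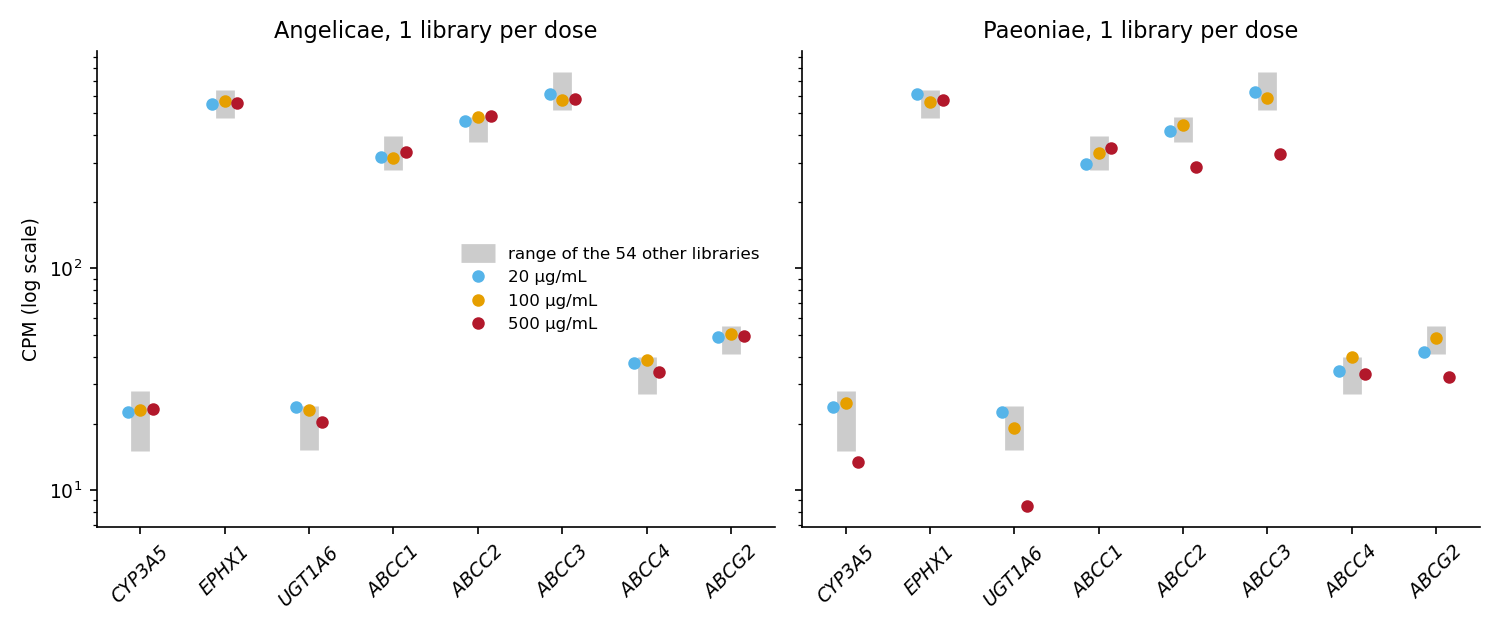
CPM on a log axis of 8 members at 20, 100 and 500 µg/mL of Angelicae and Paeoniae, 1 library per point, with grey bars for the range of the 54 libraries of the vehicle and the replicated extracts. The high Paeoniae points of CYP3A5, UGT1A6, ABCC2, ABCC3 and ABCG2 fall below their bars, and the Angelicae points lie within theirs except ABCC2 at medium and high dose (480 and 486 CPM, above 479).

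Other genes of drug clearance were followed in 5 lists. On the list of phase 1 enzymes, 30 of 40 were tested, and high against low Glycyrrhizae gave 7 higher and 10 lower, with a list median of -0.08. In that comparison 18.5% of all tested genes were higher and 18.4% lower, with a median of 0.00. The Glycyrrhizae counts of each list below are to be read against these shares. CYP1A1, an oxidase of polycyclic aromatic compounds, had 0.466 ± 0.204 CPM at low and 215 ± 5.34 CPM at high dose, and CYP1B1 went from 141 ± 3.5 to 888 ± 11.7 CPM (2.65 ± 0.04; edgeR adjusted p = 1.83e-40). The aldehyde dehydrogenase ALDH3A1 (0.83 ± 0.04) and the P450 CYP2S1 (1.73 ± 0.12) rose as well. CYP3A5 was lower at the dose at which these P450 genes were higher.

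Between low and high dose, 4 of these 30 genes rose and 2 fell with Sibjeondaebo-tang, and 2 rose and 2 fell with Palmul-tang. CYP1B1 and ALDH3A1 were among the genes that rose in both formulas, and those that fell were the aldehyde oxidase AOX1 and ALDH1A1. CYP1B1 changed by 0.35 ± 0.04 and 0.48 ± 0.05 there and AOX1 by -0.31 ± 0.05 and -0.25 ± 0.06. Poria gave 3 higher, among them CYP4F11 (0.23 ± 0.05), and 1 lower, the monoamine oxidase MAOA (-0.18 ± 0.04). Ginseng gave 1 higher, CYP1B1 (0.15 ± 0.04). Of all tested genes, 3.78% were called between these doses with Sibjeondaebo-tang, 2.08% with Palmul-tang, 1.55% with Poria and 1.2% with Ginseng. The counts of these extracts in each list are to be read against their own share.

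Of 35 phase 2 enzymes tested, 12 were lower and 3 higher at high than at low Glycyrrhizae dose (list median -0.19), beside 18.4% lower and 18.5% higher of all tested genes. Those that fell include the sulfotransferases SULT1E1 (-1.59 ± 0.09) and SULT1B1 (-0.92 ± 0.06). Ginseng lowered the glutathione transferases GSTA2 (-0.68 ± 0.13) and GSTA1 (-0.53 ± 0.11), near-identical genes whose reads can be shared. Sibjeondaebo-tang lowered SULT1B1 alone (-0.20 ± 0.06), and Poria lowered SULT1E1 alone (-0.29 ± 0.08).

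Of 17 other ABC transporters tested, high against low Glycyrrhizae gave 4 higher and 6 lower (18.5% and 18.4% of all tested genes). The lipid transporter of lung surfactant ABCA3 (0.45 ± 0.06) and ABCA2 (0.34 ± 0.07) rose, and ABCC6 (-1.40 ± 0.14) and ABCA5 (-0.42 ± 0.09) fell. Ginseng lowered 1, the cholesterol exporter ABCA1 (-0.52 ± 0.09).

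Among 17 uptake and exchange carriers tested, where the shares of all tested genes were again 18.5% higher and 18.4% lower, Glycyrrhizae gave 5 higher, such as the exporter of organic cations SLC47A1 (0.58 ± 0.07), and 4 lower, such as the carnitine carrier SLC22A5 (-0.74 ± 0.05). Sibjeondaebo-tang lowered SLCO1B3 (-0.36 ± 0.06) and Palmul-tang SLC22A5 (-0.21 ± 0.06), 1 gene each. Of 25 receptors and factors, with the same shares of 18.5% and 18.4% over all tested genes, Glycyrrhizae raised 9, among them the aryl hydrocarbon receptor repressor AHRR (1.90 ± 0.16), and lowered 7, among them the liver-type factors HNF4A (-1.25 ± 0.07) and FOXA1 (-0.63 ± 0.07). FOXA1 also fell with Palmul-tang (-0.30 ± 0.08), the 1 call of this list outside Glycyrrhizae between high and low dose. The list members were chosen with results of these data known, and their directions are no independent evidence.

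Likeness was measured as Pearson's r of log2(mean CPM + 1) over the 24 extract groups, among 10586 named genes whose mean reached 5 CPM. It is a description over groups that share sets, scaling and cell line. CYP3A5 was closest to TIA1 (r = 0.92), ERVK13-1 (0.89) and ZNF33B (0.88). ABCC1 was closest to SLC3A2 (0.92), TPRA1 (0.91) and SLC7A5 (0.91), and ABCC4 to NAB1 (0.89), KLHDC2 (0.86) and SYNE1 (0.84). The high Glycyrrhizae and high Paeoniae groups were then left out, after their values were seen. Over the remaining 22 groups TIA1, ERVK13-1 and ZNF33B had r = 0.90, 0.80 and 0.85 with CYP3A5. SLC3A2, TPRA1 and SLC7A5 had 0.83, 0.75 and 0.74 with ABCC1, and NAB1, KLHDC2 and SYNE1 had 0.86, 0.84 and 0.82 with ABCC4.

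For UGT1A6 the closest genes were TIGD1, PPHLN1 and PSMD5 (0.96 each), and r dropped to 0.61, 0.70 and 0.61 over 22 groups. ABCC3 was closest to PCED1A (0.97, then 0.85), METAP1D (0.95, then 0.56) and TTLL3 (0.95, then 0.74). EPHX1 had no close gene, with TOB2 (0.68), DCAF11 (0.67) and CLU (0.67) first. ABCC2 was closest to CCNL2 (0.96, then 0.71), ZNF518A (0.96, then 0.69) and EDRF1 (0.95, then 0.66).

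Within the members the highest likeness was between ABCG2 and ABCC2 (r = 0.95 over 24 groups, 0.80 over 22), and ABCC2 was also the closest of all genes to ABCG2, before CMAS and ZDHHC17 (0.95 each). UGT1A6 and ABCC2 had r = 0.89 over 24 groups and 0.25 over 22, and ABCC2 and ABCC3 0.75 and -0.14. These values therefore rest on the pair of groups left out. CYP3A5 and UGT1A6 had 0.72 and 0.45. ABCC1 ran against UGT1A6 (-0.52, then -0.38) and against CYP3A5 (-0.48, then -0.17).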

How the data were processed

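Messenger RNA from A549 cells was sequenced in 60 libraries of 25 groups (16 groups of 3, 3 of 2 and 6 of 1). The authors deposited expected counts per gene, made with FastQC 0.11.9, Trim Galore 0.6.5, STAR 2.7.3a and RSEM 1.3.3 on GRCh38, per the submitters' processing notes. Which annotation release and strand setting were used is not given in the sources used here. Of 270 columns deposited, 60 match these samples and 210 were not used. Of values above 0, 76.0% were whole within 1e-09, and all were rounded to whole numbers before fitting. Symbols came from a gene name table for 56558 of 60675 identifiers and from GENCODE 29 for 497, which also gave exon lengths and positions. Libraries of a group differed beyond sampling noise in all 51 pairs (chi-square per degree of freedom 2.61 to 37), so none was counted as a repeat.

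Counts were fitted with edgeR 4.0.16 in R 4.3.3 (quasi-likelihood test, TMM scaling, default filter on low counts) over all 60 libraries with 1 mean per group. The fit had 17764 genes and 35 residual degrees of freedom, and the common BCV (biological coefficient of variation) was 5.59%. P-values were adjusted by Benjamini-Hochberg over all tested genes, with a threshold of 0.05. CPM are TMM-scaled, and fold changes of unreplicated libraries use CPM + 1 and a limit of 1.5-fold. Intervals are 95%, and the floor of 3 counts covers counting error only. The statistical script was tested on simulated counts.

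The 9 members are named in every comparison. From each pathway list up to 4 called genes with the smallest adjusted p were eligible for naming, and for likeness the 3 genes with the highest r. UGT1A1, UGT1A7 and UGT1A9 were named because they share exons with UGT1A6. Members, lists and tests were chosen with earlier results of these data known. Alternatives were DESeq2 1.42.0, RLE scaling, total counts, no filter, only the groups of an extract, a replicate block, summed gene families and leaving out each library. Refits without a library kept the dispersion trend of all libraries. Same-numbered libraries deviated together in every pair for Ginseng high and low (r = 0.19, 0.19 and 0.305) and Ginseng medium and low (0.345, 0.388 and 0.41). The same held for Glycyrrhizae medium and low (0.507, 0.634 and 0.196) and Poria high and low (0.0953, 0.287 and 0.225). It also held for Palmul-tang, with 2 libraries per dose, at high and low (0.071) and medium and low (0.0922). These r values are over genes whose mean reached 5 CPM. The main fit did not pair samples by number in any extract. A replicate block was run only as an alternative, for every extract.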

Additional observations from a re-analysis of the deposited data

Results flagged for a closer look

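ABCC3 and ABCC1 are listed because their change between low and high dose differed between Glycyrrhizae and Ginseng by a test of the difference itself. The difference was 0.45 on the log2 scale for ABCC3 (edgeR adjusted p = 2.59e-05) and 0.27 for ABCC1 (edgeR adjusted p = 0.00147), both higher with Glycyrrhizae. These are 2 of 8 members tested, and the same test called 21% of all tested genes.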

How the results depend on the processing

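Of 96 member changes between doses, refitted 1144 times under the alternatives, 1115 refits stayed on the same side of the threshold. Another 24 lost a call, 5 gained one and 0 turned a call around. Most of the 96 changes were uncalled in the main fit, so most refits on the same side stayed uncalled. In 83 of them the sign differed, with neither fit called. The calls lost were CYP3A5 with Palmul-tang and Ginseng, ABCC3 with both formulas, and UGT1A6 and ABCC4 with Glycyrrhizae. CYP3A5 with Sibjeondaebo-tang, Poria and Glycyrrhizae and ABCC1 and ABCC3 with Glycyrrhizae were called between low and high dose under every alternative run. Counts of called members that moved by over 1.5 times follow. Between high and low dose, total counts gave 1 for Sibjeondaebo-tang and 0 for Palmul-tang and Ginseng, and fitting only an extract's groups gave 1 for Sibjeondaebo-tang and 0 for Ginseng. Against the vehicle at high dose, total counts gave 4 for Glycyrrhizae and 2 for Ginseng, only an extract's groups gave 3 for Glycyrrhizae and 2 for Palmul-tang, RLE and DESeq2 gave 2 for Palmul-tang, and DESeq2 gave 1 for Sibjeondaebo-tang. Against the vehicle at low dose, no filter gave 2 for Poria and only an extract's groups gave 2 for Glycyrrhizae. The replicate block gave 4 for high Glycyrrhizae against the vehicle and changed no count of members between doses. Leaving out 1 library gave, between high and low dose, 1 to 2 for Sibjeondaebo-tang, 0 to 1 for Palmul-tang, 0 to 1 for Ginseng and 4 to 6 for Glycyrrhizae. Against the vehicle it gave at high dose 0 to 2 for Sibjeondaebo-tang, 1 to 2 for Palmul-tang, 2 to 3 for Poria, 3 to 6 for Atractylodis, 3 to 7 for Glycyrrhizae and 2 to 4 for Ginseng. At low dose it gave 2 to 3 for Sibjeondaebo-tang and Atractylodis, 1 to 3 for Palmul-tang, 2 to 4 for Poria, 3 to 4 for Glycyrrhizae and 3 to 6 for Ginseng. Except where the alternative itself has fewer libraries or genes, the cause was not tested. Low counts limit ABCB1, and 2 libraries per dose limit Palmul-tang.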
